A study of Mus musculus with 6 samples.

Results

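The genes described here handle glutamine, glutamate and ammonia in the liver. There are 8 on the list, and 7 of them were measured, out of 19938 genes with a probe set of their own. They fall into a pericentral set of 4 (Glul, Slc1a2, Oat and Rhbg) and a second set of other glutamine genes, of which Glud1, Slc38a3 and Slc38a4 were measured. Gls2, the liver glutaminase gene, was not analysed here. The members were chosen by their values in GFP-positive against GFP-negative arrays, so their differences between those groups are given as a description, with no p-value.

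The cells came from 3 CyclinB1-GFP transgenic mice, weaned and 3.5 weeks old, whose livers were perfused and made into single-cell suspensions. Cell sorting gave a GFP-positive fraction, named replicating in the labels, and a GFP-negative fraction, named quiescent, with 3 arrays each. Both fractions carry the same reporter transgene, are of the same age and received no treatment named in the labels. The sources used here do not say which promoter drives the reporter, nor the genetic background. Each array started from 10 ng of amplified total RNA. Values are log2 of the deposited RMA intensity, and array medians lay between 4.60 and 4.74 on that scale. Differences are GFP-positive minus GFP-negative, with the standard error (SE) of a limma fit across all genes.

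In the liver lobule, hepatocytes around the portal vein break glutamine down and make urea from ammonia. The last rows of hepatocytes before the central vein capture the ammonia that is left and fix it into glutamine. Glutamine synthetase, which Glul encodes, is the textbook marker of these pericentral cells, and beta-catenin signalling through TCF and LEF factors is known to maintain their gene programme. Slc1a2 encodes a glutamate transporter that supplies the substrate, Oat the ornithine aminotransferase that links ornithine to glutamate, and Rhbg an ammonia transporter of the Rhesus family. Among the other genes, Glud1 encodes the mitochondrial glutamate dehydrogenase, which releases or binds ammonia. Slc38a3 encodes a glutamine transporter coupled to sodium and protons, and Slc38a4 a neutral amino acid transporter of hepatocytes.

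Division genes separated the sorted fractions, and hepatocyte markers were present in both. All 10 listed division genes rose in GFP-positive cells at a limma adjusted p below 0.05, as did 1.55% of all genes. Among them was Cdk1, the kinase of mitotic entry (9.82 ± 0.13 in GFP-positive cells, against 5.31 ± 0.28 in GFP-negative cells, SD, n = 3 each, limma adjusted p = 1.2e-06). The fractions were sorted on the CyclinB1-GFP reporter, so this rise describes the sort. Of 11 measured hepatocyte markers none lay below the array medians in both groups, and none passed the test, while 9 had differences below 0. Their summed intensity was 15.81 to 15.92 on GFP-positive arrays and 15.95 to 16.0 on GFP-negative arrays. Clec4f, a Kupffer cell lectin gene, fell (4.90 ± 0.08 in GFP-positive cells, against 5.59 ± 0.07 in GFP-negative cells, limma adjusted p = 0.032). That call was lost with the replicate number as a block (adjusted p = 0.077) and without any single array (adjusted p = 0.070 to 0.15). No other of 12 Kupffer markers passed, and 9 of the 12 lay below the array medians in both groups. The summed intensity of that list was 7.82 to 7.94 on GFP-positive arrays and 8.05 to 8.35 on GFP-negative arrays, on the log2 scale. The sums of 14 endothelial markers (8.57 to 8.66 against 8.78 to 9.01) and of 12 stellate markers (8.52 to 8.70 against 8.90 to 9.08) were also lower in every GFP-positive array, with no member passing. Sums of the lymphoid, erythroid and neutrophil lists overlapped between the groups, as did that of 7 cholangiocyte markers (8.18 to 8.32 against 7.86 to 8.22). No gene of these lists passed. The part of any of these cell types in the differences below was not tested.

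The pericentral genes Slc1a2, Glul and Oat stood well below their GFP-negative levels in all GFP-positive arrays. Slc1a2 (probe set 10474141) read 5.41, 5.20 and 5.18 in GFP-positive cells of replicate numbers 1, 2 and 3, against 7.78, 7.85 and 6.88 in GFP-negative cells. The GFP-positive values were close together, while number 3 was the low one among the GFP-negative arrays. Its difference of -2.24 ± 0.24 (SE) was the lowest of all 19938 genes and equals a 4.73-fold lower intensity. Glul (probe set 10350753) read 9.02, 8.35 and 9.22 in GFP-positive cells, against 10.29, 10.43 and 10.31 in GFP-negative cells. Here the spread lay on the other side: the SD was 0.46 among GFP-positive arrays and 0.07 among GFP-negative ones, with number 2 the low GFP-positive array. The difference was -1.48 ± 0.21, or 2.79-fold, the fourth lowest. Oat (probe set 10568568) read 8.62, 8.54 and 8.34 in GFP-positive cells, against 9.86, 9.85 and 9.52 in GFP-negative cells. The Oat values were even within both groups, and the difference was -1.24 ± 0.15, or 2.37-fold. In bulk RNA of sorted cells, fewer cells of a type and less RNA per cell cannot be told apart.

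A second probe set annotated to Glul (10374453) gave 6.10, 5.01 and 6.28 in GFP-positive cells, against 7.59, 7.52 and 7.37 in GFP-negative cells. It differed by -1.697, or 3.24-fold, and number 2 was again the lowest GFP-positive array. Both probe sets share Glul transcript accessions in the platform annotation, so they are not independent genes, and transcripts of near-identical copies could contribute to either.

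Rhbg, the fourth pericentral gene, was dim. It (probe set 10499329) read 4.54, 3.91 and 4.11 in GFP-positive cells, all below their array medians, against 4.97, 4.62 and 5.06 in GFP-negative cells, all above theirs. The groups were separated by only 0.09. The measured difference was -0.70 ± 0.19. With values under an array's median raised to that median it was -0.19, or 1.14-fold, so the size of the Rhbg difference is uncertain.

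**Figure D1:**
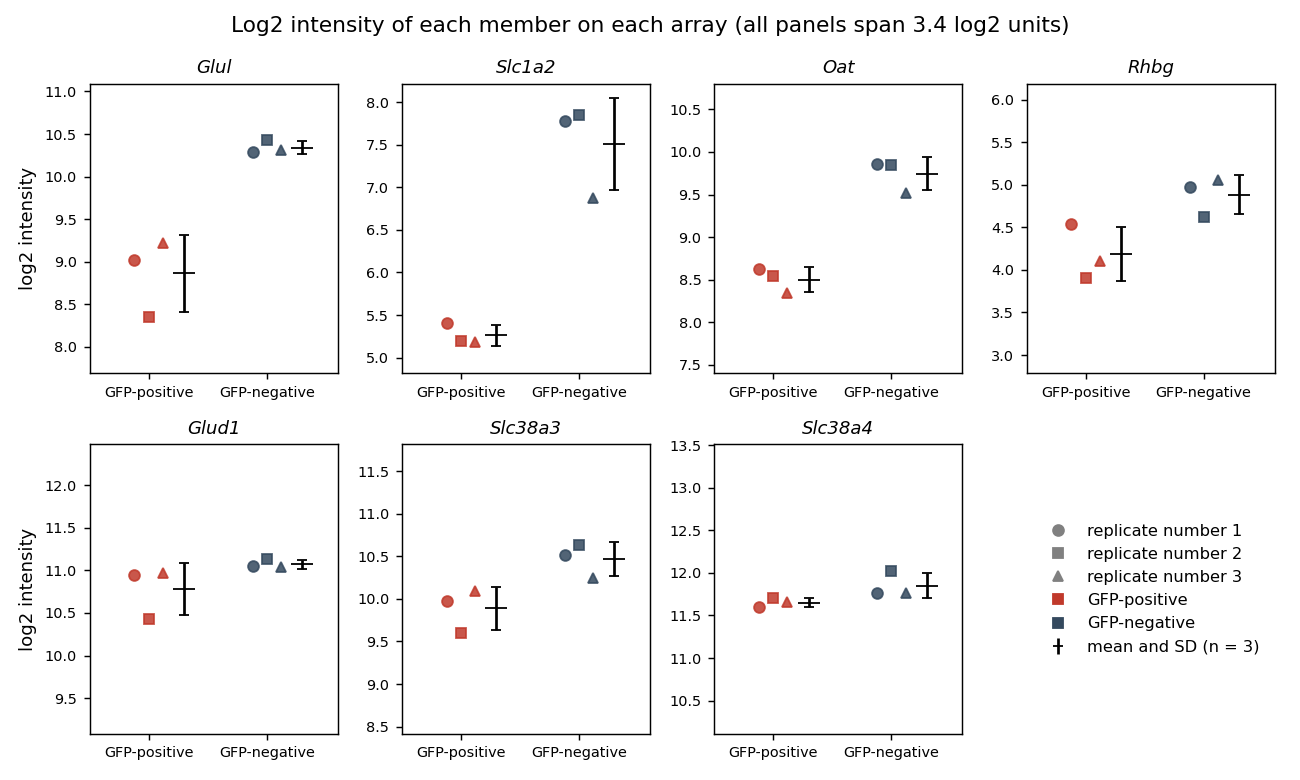
Log2 intensity (y axis) of each of the 7 measured genes on each array, GFP-positive at the left and GFP-negative at the right of each panel, with the mean and SD (n = 3) beside the points and symbol shapes for the replicate number. Slc1a2, Glul and Oat show gaps of 1.48, 1.07 and 0.90 between the nearest arrays of the groups, while the gaps of Rhbg, Glud1, Slc38a3 and Slc38a4 are 0.16 or less.

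The sequences just upstream of the 3 pericentral genes with the largest differences are shown as a description. These genes were picked on the contrast between the fractions. RefSeq windows (GRCm38.p6) were found for 5 of the 7 members, and Rhbg and Slc38a3 had none in the table used. Each stretch below is the 250 bases before an annotated transcript start, 5′ to 3′ on the gene's strand. Capitals mark matches to the TCF/LEF core, spelled CTTTGAA, or else CTTTGAT, or else CTTTGTA, or else CTTTGTT, and to the CCAAT box, searched by these letters on both strands. Glul lies on the plus strand (chr1:153899679-153899928), Slc1a2 on the plus strand (chr2:102706188-102706437) and Oat on the minus strand (chr7:132576399-132576648). The Slc1a2 start in the table lies 48199 bases inside the annotated gene, so its window precedes an internal start.
Glul: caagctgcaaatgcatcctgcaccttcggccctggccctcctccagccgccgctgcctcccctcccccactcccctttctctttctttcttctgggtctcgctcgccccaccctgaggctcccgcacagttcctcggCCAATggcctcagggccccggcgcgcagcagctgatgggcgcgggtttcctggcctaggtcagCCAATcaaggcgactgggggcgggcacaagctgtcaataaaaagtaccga
Slc1a2: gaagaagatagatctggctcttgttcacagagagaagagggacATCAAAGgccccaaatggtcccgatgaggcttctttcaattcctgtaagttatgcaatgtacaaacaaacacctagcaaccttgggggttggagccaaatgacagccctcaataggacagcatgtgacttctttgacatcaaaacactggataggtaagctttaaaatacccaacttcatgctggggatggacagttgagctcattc
Oat: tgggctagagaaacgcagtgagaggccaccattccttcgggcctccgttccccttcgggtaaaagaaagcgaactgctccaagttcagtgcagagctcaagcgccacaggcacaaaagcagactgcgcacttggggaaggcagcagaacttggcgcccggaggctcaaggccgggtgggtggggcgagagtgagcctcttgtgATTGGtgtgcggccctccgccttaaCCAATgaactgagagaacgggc

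The Slc1a2 window held 1 TCF/LEF match, read as ATCAAAG and covering bases 207 to 201 upstream of the start. The Glul and Oat windows held none, but each had 2 CCAAT boxes. In Glul the boxes began 113 and 50 bases upstream, and in Oat 47 and 22 bases upstream. No TCF/LEF match was found in the Glud1 window or in the 3 Slc38a4 windows. CCAAT boxes were not limited to the pericentral genes: the Slc38a4 windows held 1, 3 and 0 of them, and the Glud1 window 0. The matches did not overlap each other. Of 32851 windows of the same length, 14.8% held a TCF/LEF match and 33.8% a CCAAT box. Base composition differed as well. GC content was 64.8% in Glul, 44.8% in Slc1a2, 60.0% in Oat, 82.0% in Glud1 and 46.0% to 52.8% in Slc38a4, against a median of 52.4% over all windows. The CpG count was 15 in Glul, 1 in Slc1a2, 14 in Oat, 46 in Glud1 and 3 to 5 in Slc38a4, against a median of 6. Such matches describe these windows only.

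The other glutamine genes differed less. Glud1 (probe set 10414093) read 10.95, 10.43 and 10.97 in GFP-positive cells, against 11.05, 11.13 and 11.04 in GFP-negative cells. Number 2 was the low GFP-positive array, and the mean difference was -0.29 ± 0.17. Slc38a3 (probe set 10596718) read 9.98, 9.60 and 10.09 in GFP-positive cells, against 10.52, 10.63 and 10.25 in GFP-negative cells. Its difference of -0.58 ± 0.17 equals a 1.49-fold lower intensity. Slc38a4 (probe set 10431915) read 11.60, 11.70 and 11.66 in GFP-positive cells, against 11.76, 12.02 and 11.76 in GFP-negative cells. This was the smallest difference among the members, -0.19 ± 0.14, with the nearest arrays of the groups only 0.05 apart, and it was -0.11 without GFP-negative 2.

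In all 7 measured members every GFP-positive array lay below every GFP-negative array, as was the case in 6.98% of all genes. In the fit across all genes, 3 of the 7 (Slc1a2, Glul and Oat) were among the 23 genes lower at a Benjamini-Hochberg adjusted p below 0.05, which are 0.115% of the genes tested. None of the 7 was among the 310 higher ones, which are 1.55%. The members were picked on this contrast, so nothing is read from these shares.

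The sets were also compared with each other within a replicate number. That a number marks the same mouse in both fractions was seen from Xist for number 2 only, while the match of numbers 1 and 3 is assumed, so the spread between numbers depends on it. Averaged over the 4 pericentral genes, the difference came to -1.33 in number 1, -1.69 in number 2 and -1.23 in number 3. Averaged over the 3 other genes, it came to -0.27, -0.68 and -0.11. Number 2 was lowest in both sets, and pericentral minus other came to -1.06, -1.01 and -1.12, with a mean of -1.06 that does not depend on the match. Taken per array, pericentral minus other had an SD of 0.13 among the 3 GFP-positive arrays and 0.11 among the 3 GFP-negative arrays. Without Rhbg the same contrast was -1.35, -1.34 and -1.22. The median difference of all genes was -0.01, 0.02 and -0.06 in these numbers.

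All 21 single differences (7 genes in 3 replicate numbers) lay below 0. That follows from the separation of the groups in all 7 members and adds nothing to it. In 6 of the 7 genes the lowest difference was in number 2, the exception being Rhbg with its lowest in number 3 (-0.94). For Slc38a3 the difference was -0.55, -1.03 and -0.16, and for Glud1 -0.10, -0.70 and -0.06, so number 2 weighed most in these means. Without both arrays of number 2 the mean differences were -0.35 for Slc38a3, -0.08 for Glud1 and -1.18 for Glul. Leaving out GFP-positive 2 alone gave -0.11 for Glud1. Number 2 was also the only number with high Xist, the transcript of the inactive X chromosome (9.80 in GFP-positive cells and 9.03 in GFP-negative cells, against 3.73 to 4.04 in the other arrays), so sex and animal cannot be told apart here.

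**Figure D2:**
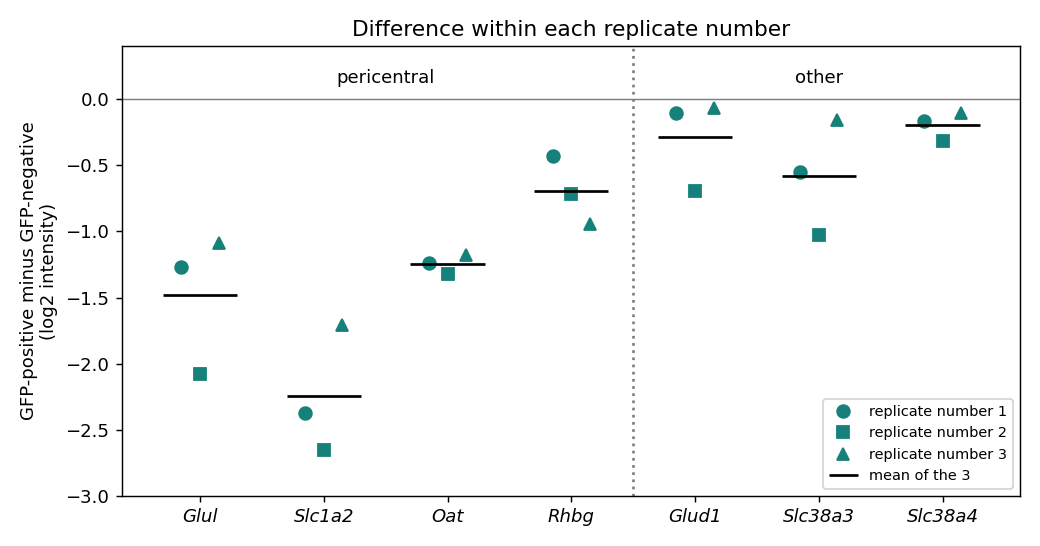
GFP-positive minus GFP-negative log2 intensity (y axis) for each gene within replicate numbers 1, 2 and 3, with a bar at the mean and the pericentral genes left of the dotted line. All 21 points lie below 0, as they must where every GFP-positive array is below every GFP-negative one. Number 2 is the lowest point in each gene but Rhbg.

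A question that the choice of members did not use is whether their levels differed between replicate numbers, taking both fractions together. In limma's F-test on the number terms, fitted with the group across all genes, 33 genes passed (0.166%), and none of the 7 members did. None had an unadjusted p below 0.05 either, a mark that 5.12% of all genes passed, so 0 of 7 says little about the members. The unadjusted p ran from 0.095 (Slc1a2) to 0.85 (Slc38a3), and each adjusted p was 1.0. Whether the difference between fractions itself varied between numbers cannot be tested with 1 array of each fraction per number.

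The members can also be placed by the likeness of their 6 values, each centred on its own mean, using the root mean square distance in log2 units. The values were not scaled, so this distance also depends on the size of the difference between the fractions. Among 11334 genes with a mean at or above the array medians, with the members left out, Pex11a, which acts in peroxisome division, was closest to Glul (0.257), followed by the glycolytic aldolase gene Aldoc (0.265) and the gulonolactone oxidase gene Gulo of vitamin C synthesis (0.269). Rdh9, a retinol dehydrogenase gene, was closest to Oat (0.168), with Pex11a (0.176) and Aldoc (0.208) next. The genes nearest to Slc1a2 lay farther off, namely the cytochrome P450 genes Cyp4a31 (0.527) and Cyp4a14 (0.563) and then Pex11a (0.589). Pex11a read 6.81, 6.29 and 6.63 in GFP-positive cells, against 7.77, 7.93 and 7.46 in GFP-negative cells, with number 2 lowest and highest as in Glul. Among the members, Glul and Oat lay 0.345 apart, Glul and Slc1a2 0.547 apart, Oat and Slc1a2 0.541 apart, and Glud1 and Slc38a3 0.177 apart.

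Beyond the members, 71 of 77 listed genes of glutamine, glutamate and ammonia metabolism and of the urea cycle were measured, and none passed the limma test over all genes in either direction. At an unadjusted p below 0.05 there were 9 of 71, where 8.8% of all genes passed. Their median difference was -0.06, against -0.03 over all genes, and they ran from -0.77 to 0.58. In 7 of the 71 every GFP-positive array lay below every GFP-negative one, as in 6.98% of all genes, and in 3 every GFP-positive array lay above, as in 6.82% of all genes. Of 27 further glutamate and glutamine transporters none passed (median -0.02), and Slc25a22, a mitochondrial glutamate carrier gene, differed most (-0.36 ± 0.17, adjusted p = 0.61). Among 21 further enzymes (median -0.14) the largest difference was that of Kyat1, a glutamine transaminase gene (7.59 ± 0.61 in GFP-positive cells, against 8.36 ± 0.19 in GFP-negative cells, adjusted p = 0.37). The 10 amidotransferases, which spend glutamine nitrogen on nucleotides and other products, had a median of 0.07. Ctps, the CTP synthase gene, differed most among them, at 5.30, 5.58 and 5.59 in GFP-positive cells against 4.92, 4.94 and 4.88 in GFP-negative cells (0.58 ± 0.14, adjusted p = 0.11). Of 5 other ammonia channel genes (median -0.10), the aquaporin gene Aqp8 differed most (-0.53 ± 0.23, adjusted p = 0.53). Of 8 urea cycle genes (median -0.12), the ornithine carrier gene Slc25a2 did (-0.46 ± 0.15, adjusted p = 0.29), at levels below the array medians in both groups.

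Of 37 other pericentral genes 2 fell and 1 rose at an adjusted p below 0.05, as did 0.115% and 1.55% of all genes. In this list 34 lay below 0, against 55.7% of all genes, and the list median was -0.415. At an unadjusted limma p below 0.05 there were 18 of 37, where 8.8% of all genes passed. The list was chosen with earlier results of these data known. With the replicate number as a block 3 fell, namely Cyp7a1 and, named here after their values were seen, Slc13a3, a dicarboxylate transporter gene (adjusted p = 0.028), and Aldh3a2, a fatty aldehyde dehydrogenase gene (0.037). Cyp7a1, the first enzyme of bile acid synthesis, fell (9.16 ± 0.14 in GFP-positive cells, against 10.14 ± 0.27 in GFP-negative cells, limma adjusted p = 0.017). The adjusted p of Cyp7a1 was 0.080 without GFP-positive 1, 0.068 without GFP-positive 2 and 0.098 without both arrays of number 2. Slco1b2, an uptake transporter of bile acids and other anions, fell (10.84 ± 0.15 in GFP-positive cells, against 11.56 ± 0.06 in GFP-negative cells, limma adjusted p = 0.034), but not with the replicate number as a block (adjusted p = 0.062). With single arrays left out its adjusted p ran from 0.032, without GFP-positive 2, to 0.17, without GFP-positive 1, and it passed only in the first case. Car2, a carbonic anhydrase gene, rose (5.65 ± 0.17 in GFP-positive cells, against 4.70 ± 0.22 in GFP-negative cells, limma adjusted p = 0.016). That rise did not pass without GFP-positive 1 (adjusted p = 0.085), GFP-positive 3 (0.058), GFP-negative 1 (0.085) or GFP-negative 3 (0.073). Car2 was also dim, at 4.60 and 4.56 in GFP-negative 1 and 3, below the medians of those arrays (4.64 and 4.74). None of 24 periportal genes passed (median 0.03), and 2 had an unadjusted p below 0.05, where 8.8% of all genes did. Aldh1b1, a mitochondrial aldehyde dehydrogenase gene, differed most among the periportal genes (0.73 ± 0.33, adjusted p = 0.58).

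**Figure D3:**
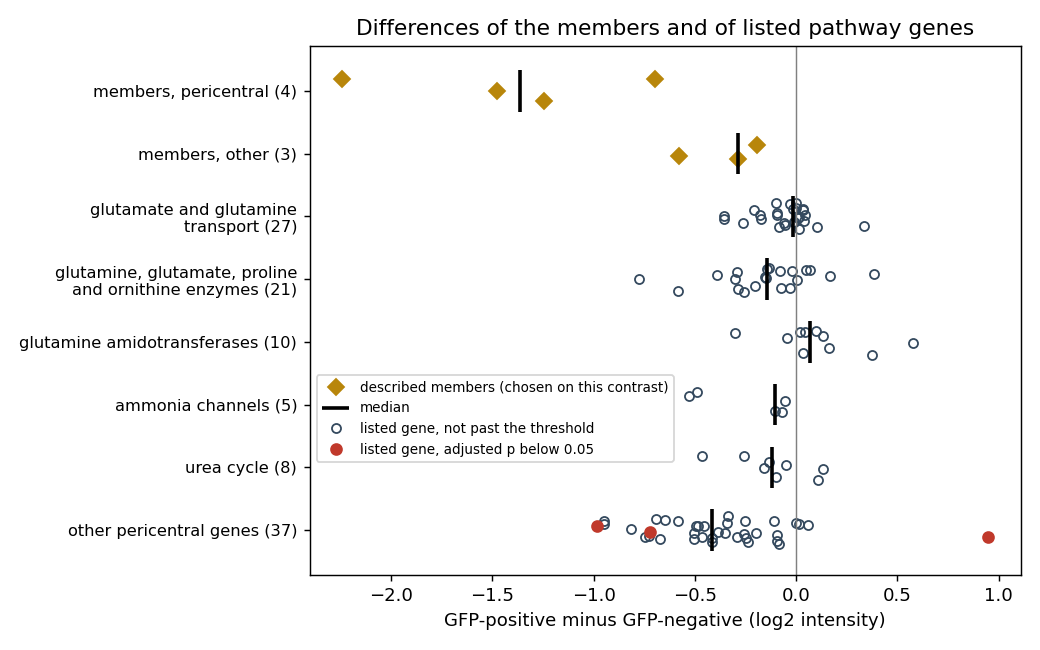
GFP-positive minus GFP-negative log2 intensity (x axis) of each gene, by list (rows, with the number measured), with a bar at each list's median and filled circles for listed genes at an adjusted p below 0.05. The pericentral members have a median of -1.36 and the other members one of -0.29, while the 5 pathway lists have medians between -0.14 and 0.07 and no filled circle. The 37 other pericentral genes have a median of -0.415, with filled circles for 2 lower genes and 1 higher gene.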

How the data were processed

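The authors deposited 1 intensity per probe set and array, made with RMA per the submitters' processing notes (version and settings not given in the sources used here). The intensities are on a linear scale (1.62 to 15836), so log2 was taken. No further normalization or low-value filter was applied, and no detection calls were used. The 35512 probe sets had 1 annotated symbol (21789), several (1621) or none (12102). Only the first kind was named, with symbols updated by Entrez identifier for 21698. The probe set with the highest mean stood for each of 19938 genes.

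Groups were compared with limma 3.58.1 in R 4.3.3 (lmFit, eBayes, with no covariate), and p-values were adjusted by Benjamini-Hochberg over all genes, with 0.05 as the threshold. Tables and plots used Python 3.11.15. The arrays' number limits the precision, and arrays are labelled as biological replicates.

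The members and gene lists were chosen with earlier results of these data known. Text genes were the members, up to 4 called genes of each list or the 1 with the largest difference, and the 3 profiles nearest to Glul, Slc1a2 and Oat.

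Replicate numbers were taken to pair the fractions of 1 mouse. The basis is the design text, by which the same 3 livers gave both fractions; the labels do not tie a number to a mouse. Across genes, the deviations from the group mean of arrays that share a number had a correlation of 0.198 (number 1), 0.0618 (number 2) and -0.0506 (number 3). In number 2, both fractions had high Xist; the match of numbers 1 and 3 is assumed.

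Alternatives were the replicate number as a block, other normalizations, a filter and a floor at the array medians, the mean of all probe sets, an intensity trend, array weights and leaving out arrays.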

Additional observations from a re-analysis of the deposited data

How the results depend on the processing

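The differences of the 7 members moved by less than 1 SD between replicates under every alternative tried, except Rhbg with values raised to the array median (-0.192). All 7 kept their sign. Every GFP-positive array lay below every GFP-negative one in these genes, so leaving out or weighting arrays could not reverse a sign. The replicate block and the intensity trend change only the SE of a difference. Slc1a2, Glul and Oat were called in each fit, but they were chosen on this contrast. Pericentral minus other was -1.06, which the replicate block cannot change, as each number holds 1 array of each fraction. It was -1.12 with quantile normalization, -0.936 with the floor and -1.13 to -1.0 with single arrays left out. In 5 of 14 settings the contrast moved by more than its SD between replicate numbers (0.0548).

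The count of lower genes was 23, and 38 with quantile normalization, 13 with arrays centred on their medians, 53 with array weights, 9 without both arrays of number 2, and 6 to 29 with single arrays left out (6 without GFP-negative 1, 9 without any 1 GFP-positive array and 11 without GFP-negative 2). With the replicate block it was 28. The count of higher genes, 310, stayed between 244 and 405. The other pericentral genes called lower were 2, but 3 with the replicate block and with quantile normalization, 4 with array weights, 0 without both arrays of number 2 and 0 to 2 with single arrays left out, while those called higher were 1, or 0 to 1 with single arrays left out. No glutamine pathway gene was called in any of these fits. The contrast has no value under the filter at the array medians, which removes Rhbg. Genes differing between replicate numbers were 33, but 16 with arrays centred and 50 with array weights. The causes of these changes were not tested. The replicate block ended the calls of Slco1b2 and Clec4f and gave those of Slc13a3 and Aldh3a2. Low signal limits Rhbg, whose GFP-positive values lie below the array medians.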
